A study of Mus musculus with 6 samples.

Results

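Msx2, Dlx2, Dlx3, Sp6, Tbx1, Sox2, Isl1, Bcl11b and Satb1 are transcription factors known from dental epithelium, and their levels were compared here in inner enamel epithelium (IEE) with and without epithelial Kdf1. They were found by their symbols in a deposited table of 18152 genes, which held all 9. Of these, 8 passed the filter on low counts and were tested with 14131 genes in all, and Isl1 did not pass. The RNA came from mouse mandibular first molars at E18.5, from which the IEE had been cut out of frozen head sections by laser capture microdissection. Of the 6 libraries, 3 were of Kdf1 fl/fl tissue (the controls, which the labels also call WT) and 3 of K14-Cre;Kdf1 fl/fl tissue (labelled cKO). Both genotypes thus carried floxed Kdf1 alleles, and the lines had a C57BL/6J background. Cre was driven by the keratin 14 promoter, which is active in stratified epithelia in general and not in the tooth alone, and the controls are named without the Cre transgene, so that carrying Cre and losing Kdf1 cannot be told apart. The number of embryos behind a library is not given in the sources used here.

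Inner enamel epithelium is the layer of the enamel organ that faces the dental papilla, and its cells leave the cell cycle and become ameloblasts, which secrete the enamel matrix. Homeodomain proteins of the Msx and Dlx families, the zinc finger protein Sp6 (epiprofin) and the chromatin organiser Satb1 are known to be needed for ameloblast differentiation or for the amount of enamel matrix made. Sox2, Isl1, Tbx1 and Bcl11b are better known from the cervical loops and the early dental epithelium, where they mark or maintain progenitor cells or set where enamel forms.

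Total estimated counts per library ran from 14713918 to 16675133. Kdf1 had 836, 731 and 835 counts in the control libraries and 0, 1 and 0 in the cKO libraries. All 15 pan-epithelial markers were measured, and their summed level was 10800 to 16200 CPM (counts scaled to library size) in the controls and 6920 to 10400 CPM in the cKO libraries, with no overlap. The median log2 fold change of these 15 genes was -0.40 (-0.64 without cKO library 3). Not all moved alike, since 6 had lower CPM in every cKO library and 8 overlapped between the groups. Krt18 alone had higher CPM in every cKO library (log2 fold change 0.90). Of all genes, 16.2% were lower and 14.5% higher without overlap. A gene passed with an edgeR adjusted p of at most 0.05 and a log2 fold change of 1 or more in size, as 0.432% of all genes did, and of the 15 this was so for 1, Cdh1 (E-cadherin, log2 fold change -1.50, edgeR adjusted p 0.0498, and 0.0476 to 0.21 with 1 library left out in turn, passing only without cKO library 3). With the replicate number as a block, which 1.92% of all genes passed as lower and 4.16% as higher, 2 of the 15 passed, Cdh1 and the basal keratin Krt14, both lower. Papilla and other mesenchyme markers, of which 15 of 16 were tested, had a median log2 fold change of 1.49 (2.30 without control library 2) and a summed level of 3860 to 21800 CPM in the controls and 10300 to 11900 CPM in the cKO libraries, and 1 passed as higher, against 9 higher and 1 lower with the block. Endothelial markers (8 of 8 tested) summed to 299 to 387 CPM against 356 to 1060 CPM. Myeloid markers (8 of 8 tested) summed to 37.9 to 83.5 CPM against 65.5 to 241 CPM. None of these 16 passed in edgeR with or without the block. An unadjusted edgeR p of at most 0.05 was found for 5 of each list, all higher, against 13% of all genes higher. DESeq2 passed 2 endothelial and 4 myeloid markers, all higher, against 6.81% of all genes in either direction. The endothelial and myeloid median log2 fold changes, 0.94 and 1.27, were 0.52 and 0.63 without cKO library 1. Keratinised oral epithelium markers (5 of 12 tested) had a median of -0.75, with 1 lower and 2 lower with the block. They summed to 229 to 451 CPM in the controls and 60 to 136 CPM in the cKO libraries. Of those not tested, Krt13 and Krt4 had 585 and 410 counts in control library 3, and at most 6 in any other library. Bone and cartilage markers (6 of 8 tested) had a median of 0.76, with 2 higher with the block. Of muscle and nerve markers only 3 of 8 each were tested, and summed to 2 to 5.21 CPM against 3.69 to 12 CPM and to 154 to 342 CPM against 77.5 to 136 CPM, with 1 nerve marker lower with the block. Of 8 T cell markers 2 were tested, Cd4 and Lck, with log2 fold changes of 1.69 and 0.47 (median 1.08) and no call, and the 8 summed to 1.94 to 2.39 CPM against 2.31 to 4.34 CPM. Cd4 had 0.182 to 0.442 CPM against 0.659 to 1.46 CPM, while the defining markers Cd3d, Cd3e and Cd3g were at or below 0.126 CPM, under the floor of 3 counts. In tissue of mixed cells, fewer cells of a type and less RNA per cell cannot be told apart, and the part of these other cells in the results below was not tested.

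The 8 tested factors showed 2 kinds of pattern in CPM. Satb1, Sp6, Dlx3 and Bcl11b had lower CPM in each cKO library than in any control library. Their fold changes fitted by edgeR equal differences from the controls of -48.3%, -40.1%, -28.7% and -18.3%. Msx2, Dlx2, Tbx1 and Sox2 had overlapping levels, with fitted differences of 17.3%, 3.87%, -1.56% and -4.54%. By the quasi-likelihood test of edgeR, with Benjamini-Hochberg adjustment over all genes, 0 of the 8 had an adjusted p of at most 0.05, against 0.545% of all genes, and 3 had an unadjusted p of at most 0.05 (Satb1, Sp6 and Dlx3, all lower), against 11.6% of all genes in that direction. DESeq2, and edgeR with the replicate number as a block, each put 2 of the 8 at an adjusted p of at most 0.05, Satb1 and Sp6. Over all genes 4.9% were lower at this threshold in DESeq2 and 4.44% with the block. The 4 members without overlap between the groups stand against 16.2% of all genes with lower CPM in every cKO library. This count depends on the measure, since Bcl11b overlapped between the groups in TPM. The median log2 fold change of the 8 was -0.18 and that of all genes 0.00 (scaling to keratins, given further on, turns the sign of the first). Without control library 1, 2 or 3 the median of the 8 was -0.05, -0.35 and -0.35. None of the 8 met the fuller criterion, which also asks for a log2 fold change of 1 or more in size, in edgeR, in edgeR with the block or in DESeq2, which 0.432%, 6.09% and 6.81% of all genes met.

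**Figure D1:**
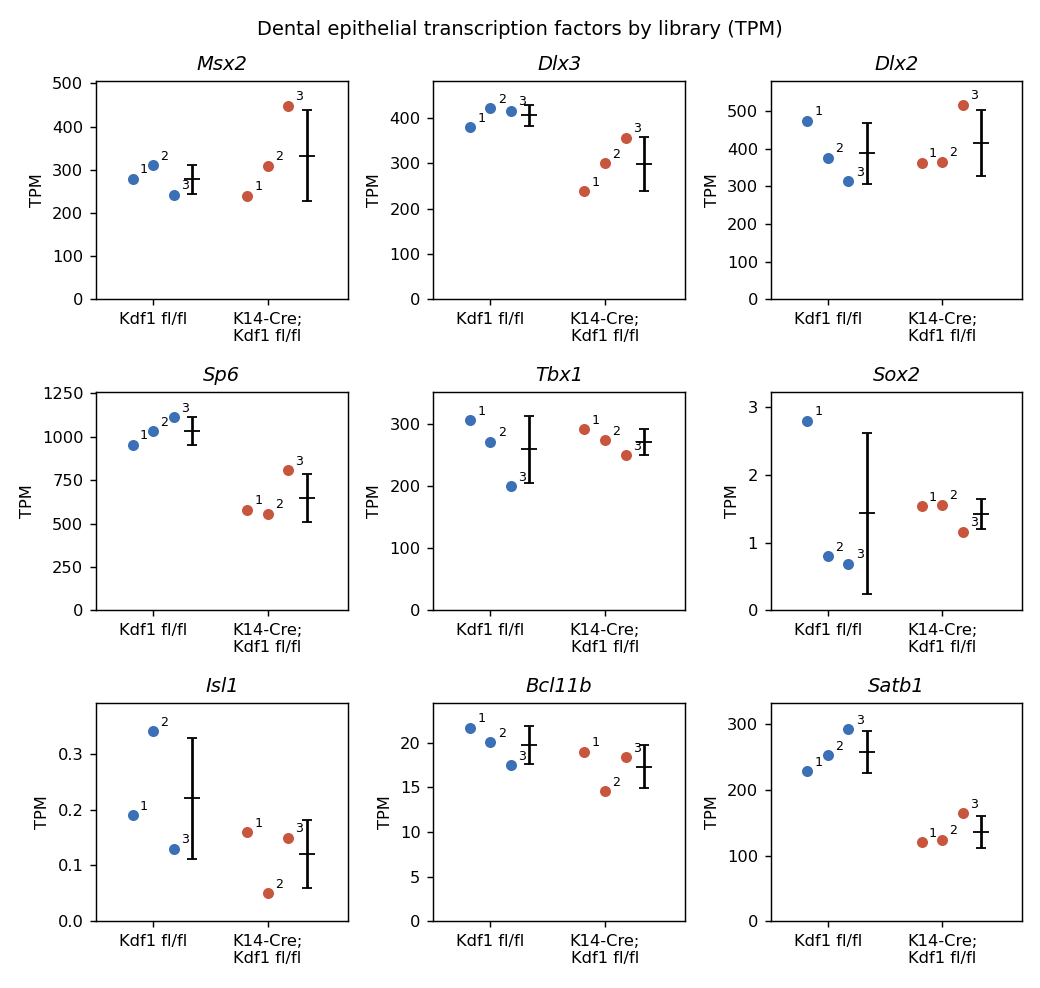
TPM (a level scaled for gene length and library size) of the 9 factors in each library, with the replicate number beside each point, and the mean and SD (n = 3) as a black bar. The cKO points lie below all control points for Dlx3, Sp6 and Satb1, and the groups overlap for the other 6.

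On the length-scaled TPM measure, Sp6 was the most abundant of the 9 in both genotypes, with 1030 ± 79.6 TPM (SD, n = 3) in the controls and 649 ± 138 TPM in the cKO libraries. In the controls Dlx3 (406 ± 22.7 TPM) and Dlx2 (388 ± 80.8 TPM) came next and did not differ beyond their spread. Msx2 (277 ± 34.5 TPM), Tbx1 (260 ± 54.4 TPM) and Satb1 (258 ± 32.3 TPM) followed and likewise lay within each other's spread. Bcl11b was far lower at 19.7 ± 2.11 TPM, Sox2 stood at 1.43 ± 1.19 TPM and Isl1 at 0.22 ± 0.108 TPM. In the cKO libraries Dlx2 (415 ± 88.2 TPM) came after Sp6, and Msx2 (333 ± 106 TPM), Dlx3 (299 ± 59.5 TPM) and Tbx1 (272 ± 21.2 TPM) could not be separated from their neighbours. Satb1 came after these at 136 ± 24.4 TPM, below every cKO value of Tbx1. By TPM rank among all genes, Sp6 stood at percentile 99.3 in the controls and 98.9 in the cKO libraries, and Satb1 at 97.2 and 93.8.

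Sp6 is a zinc finger factor whose loss in mice is known to disturb ameloblast differentiation and tooth number. Sp6 had 1800, 1840 and 2260 CPM in control libraries 1 to 3 and 982, 1030 and 1520 CPM in cKO libraries 1 to 3. The highest cKO library, number 3, lay under the lowest control library. The log2 fold change was -0.74 ± 0.21 (SE), with a 95% interval of -1.24 to -0.24 and an edgeR quasi-likelihood adjusted p of 0.107 (Benjamini-Hochberg over all genes). With the replicate block it was -0.76 with an edgeR adjusted p of 0.0384, and DESeq2 gave 0.0135. Without cKO library 3 the edgeR adjusted p was 0.0476 at a log2 fold change of -0.95, and over the other libraries left out in turn the highest was 0.322. Over the other tests, filters and scalings in which epithelial markers were not the scale, Sp6 stayed lower, with an adjusted p of 0.0135 to 0.123.

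Dlx3 is a homeodomain factor mutated in tricho-dento-osseous syndrome, in which enamel is thin, and it is known to act on enamel matrix genes. Dlx3 had 516, 542 and 610 CPM in the control libraries and 291, 400 and 498 CPM in the cKO libraries. The groups did not overlap in CPM or in TPM, and cKO library 3 came closest to the controls. Dlx3 had a log2 fold change of -0.49 ± 0.20 (SE, 95% interval -0.97 to -0.01), with an edgeR quasi-likelihood adjusted p of 0.199 and 0.0835 with the replicate block. Without cKO library 1, the lowest, the log2 fold change was -0.29, and without cKO library 3 it was -0.67.

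Msx2 is a homeodomain repressor of the enamel organ that is needed for the enamel organ to keep its layers and for normal enamel. Msx2 had 307, 324 and 287 CPM in the control libraries and 237, 332 and 506 CPM in the cKO libraries. The controls were close together, with a coefficient of variation of 5.99%, while the cKO libraries held both the lowest and the highest value (38.1%). Msx2 had a log2 fold change of 0.23 ± 0.26 (SE, 95% interval -0.38 to 0.84), with an edgeR quasi-likelihood adjusted p of 0.619. Its sign rested on cKO library 3, since without it the log2 fold change was -0.09.

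Dlx2 is a homeodomain factor of early dental epithelium and mesenchyme, which later appears in the ameloblast lineage. Dlx2 had 607, 455 and 434 CPM in the control libraries and 417, 458 and 679 CPM in the cKO libraries. The lowest and the highest of the 6 values were both cKO libraries, and the groups overlapped. The log2 fold change was 0.05 ± 0.23 (SE, 95% interval -0.48 to 0.59), with an edgeR quasi-likelihood adjusted p of 0.905. Its sign turned when control library 2, control library 3 or cKO library 3 was left out (-0.01, -0.04 and -0.17).

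Satb1 is a chromatin organiser known to be needed in presecretory ameloblasts for polarity and matrix secretion. Satb1 had 635, 681 and 906 CPM in the control libraries and 301, 345 and 504 CPM in the cKO libraries. All cKO values lay under all control values, and number 3 was the highest library in both genotypes. The log2 fold change was -0.95 ± 0.24 (SE), with a 95% interval of -1.50 to -0.40 and an edgeR quasi-likelihood adjusted p of 0.0841. With the replicate block it was -0.97 with an edgeR adjusted p of 0.0136, and the same-numbered libraries differed by -1.08, -0.98 and -0.85 in log2 CPM. DESeq2 gave an adjusted p of 0.00356, and edgeR without cKO library 3 gave 0.0476 at a log2 fold change of -1.18. Over the other libraries left out in turn the highest edgeR adjusted p was 0.29, and over the other tests, filters and scalings in which epithelial markers were not the scale, Satb1 stayed lower, with an adjusted p of 0.00356 to 0.0939.

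Bcl11b (Ctip2) is a zinc finger factor that sets where ameloblasts form on the sides of the mouse incisor and helps their differentiation. Bcl11b had 101, 87.5 and 87.2 CPM in the control libraries and 78.8, 65.6 and 81.0 CPM in the cKO libraries. The groups did not overlap in CPM, but they did in TPM, with 17.5 to 21.7 TPM against 14.6 to 19.0 TPM. Bcl11b had a log2 fold change of -0.29 ± 0.13 (SE, 95% interval -0.59 to 0.01), with an edgeR quasi-likelihood adjusted p of 0.214 and 0.164 with the replicate block. It was -0.17 without cKO library 2 and -0.18 on the log2(TPM + 1) scale.

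Tbx1, the T-box factor whose loss in mice leaves incisors without enamel, is known to keep dental epithelial cells dividing. Tbx1 had 293, 246 and 207 CPM in the control libraries and 249, 251 and 235 CPM in the cKO libraries. All cKO values fell inside the control range. Tbx1 had a log2 fold change of -0.02 ± 0.15 (SE, 95% interval -0.37 to 0.32), with an edgeR quasi-likelihood adjusted p of 0.942, and the sign turned under other scalings (0.01 with upper quartile scaling and 0.03 with library size alone).

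Sox2, a marker of dental epithelial stem cells in the cervical loops, was near the limit of what the libraries could show. Sox2 had 3.58, 0.969 and 0.948 CPM in the control libraries and 1.77, 1.95 and 1.52 CPM in the cKO libraries. Control library 1 was the highest and the other controls the lowest of the 6. The log2 fold change was -0.07 ± 0.57 (SE, 95% interval -1.41 to 1.27), with an edgeR quasi-likelihood adjusted p of 0.957. It was 0.16 with the replicate block, and 0.87 without control library 1.

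Isl1, a LIM homeodomain factor that is restricted to incisor epithelium in early mouse tooth development, had 4, 7 and 3 counts in the control libraries and 3, 1 and 3 in the cKO libraries. At a floor of 3 counts per library, no difference was detectable at this depth, and no fold is given.

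**Figure D2:**
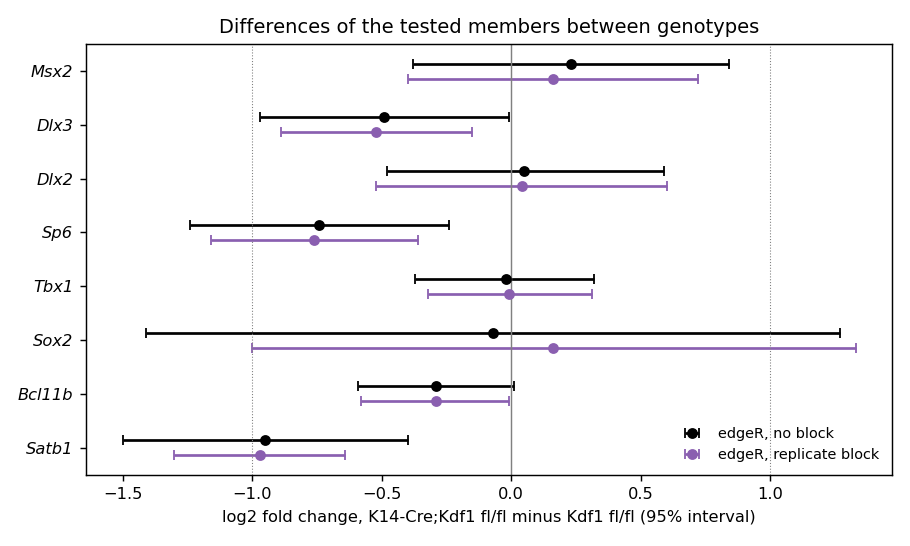
Log2 fold change of the 8 tested factors (points) with 95% intervals (bars), from edgeR without a block (black) and with the replicate number as a block (purple), with dotted lines at an absolute log2 fold change of 1. Satb1 (-0.95) and Sp6 (-0.74) lie farthest from 0, and Sox2 has the widest intervals.

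The replicates also differed in a shared way. Msx2, Dlx2, Dlx3, Sp6 and Satb1 were each lowest in cKO library 1 and highest in cKO library 3. The log2 CPM of Satb1 deviated from the control mean by -1.28, -1.08 and -0.54 in cKO libraries 1 to 3, and that of Dlx3 by -0.93, -0.47 and -0.16. Endothelial markers ran the other way, with summed levels of 1060, 634 and 356 CPM in cKO libraries 1 to 3, and so did myeloid markers, with 241, 106 and 65.5 CPM. Pan-epithelial markers summed to 7300, 6920 and 10400 CPM in cKO libraries 1 to 3, also highest in library 3. Papilla markers summed to 11900, 10300 and 11400 CPM in cKO libraries 1 to 3. The median deviation of the papilla markers from the control mean in log2 CPM was 1.58, 2.04 and 0.83, lowest in library 3. The part of these cells in the order of the cKO libraries was not tested.

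**Figure D3:**
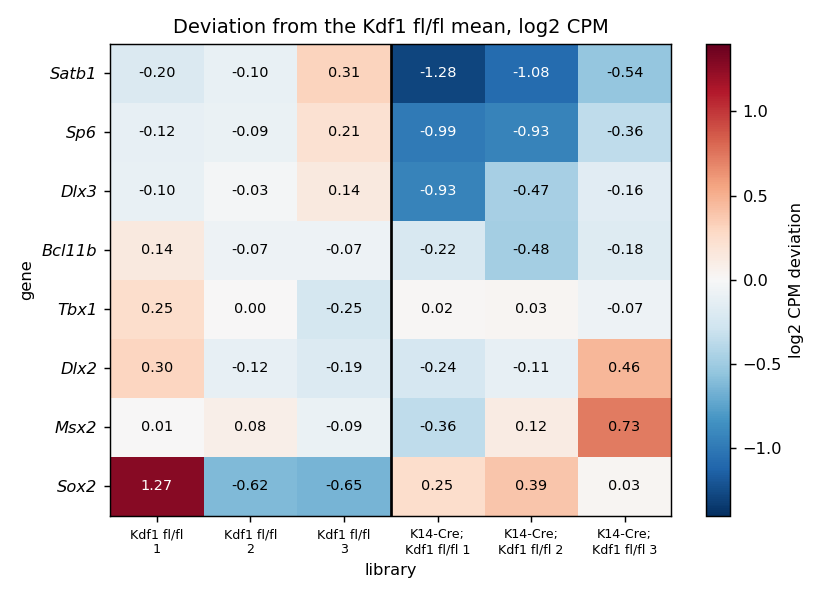
Deviation of log2 CPM from the control mean for the 8 tested factors (rows) in the 6 libraries (columns), with the value printed in each cell, red for above and blue for below. Satb1 and Sp6 are below 0 in all cKO columns, and Msx2 goes from -0.36 in cKO library 1 to 0.73 in cKO library 3.

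Ratios between members within a library do not depend on how libraries are scaled. Of 28 pairs of members, 11 had TPM ratios that did not overlap between the genotypes, against 31.7% of the 99228828 pairs of the 14088 tested genes with TPM above 0 in every library. This share is of the same order, so the count is no result about the members, and the ratios of 5 pairs are given as values. The ratio of Msx2 to Satb1 was 0.829 to 1.23 in the controls and 2 to 2.73 in the cKO libraries. Msx2 to Sp6 went from 0.218 to 0.301 in the controls to 0.413 to 0.556, and Msx2 to Dlx3 from 0.582 to 0.738 to 1.01 to 1.26. Dlx2 to Sp6 was 0.282 to 0.498 in the controls and 0.624 to 0.656 in the cKO libraries. Sp6 and Satb1 themselves stayed closer, at 3.81 to 4.18 and 4.48 to 4.91. With 3 against 3 libraries the smallest 2-sided exact permutation p is 0.1, which these pairs had, and the Benjamini-Hochberg adjusted value over the 28 pairs was 0.255. A ratio within a library shows unequal change and not which gene changed.

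The levels scaled to library size rest on the scaling. When libraries were scaled to Krt5 and Krt14, keratins of basal epithelial cells, the median of all genes moved by 1.15 on the log2 scale, and the log2 fold changes of Satb1 (0.18), Sp6 (0.38), Dlx3 (0.63) and Bcl11b (0.84) turned positive. A scaling adds nearly the same amount to every gene. Taking that shift off therefore returns nearly the TMM values (-0.97, -0.77, -0.52 and -0.31) and is no separate check of these factors. With the 15 pan-epithelial markers as the scale the median of all genes moved by 0.41. Satb1 then had a log2 fold change of -0.57, Sp6 of -0.36 and Dlx3 of -0.10, and Bcl11b turned to 0.11. The median of the 8 factors, -0.18 with TMM scaling, was 0.97 with the Krt5 and Krt14 scale.

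Enamel genes on which Msx2, Dlx3 or Sp6 are known to act formed the next list. Of 8 such genes 6 were tested, with a median log2 fold change of -3.46, and 5 were lower and 1 higher with the replicate block (log2 fold change of 1 or more in size, edgeR adjusted p of at most 0.05), against the 1.92% and 4.16% of all genes. Without the block none of the 6 had an edgeR quasi-likelihood adjusted p of at most 0.05, and all 6 had an unadjusted p at or under it, against 24.5% of all genes. Amelx encodes amelogenin, the main enamel matrix protein. Amelx had 1240, 4580 and 10700 CPM in the controls and 2.59, 51.8 and 224 CPM in the cKO libraries, so that the groups did not overlap while each spanned a wide range. Its log2 fold change was -5.89 ± 1.57 (SE), with an edgeR adjusted p of 0.092 and 0.00957 with the replicate block.

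Enam, which encodes the matrix protein enamelin, had 88.5, 964 and 2320 CPM in the controls and 13.1, 14 and 41.7 CPM in the cKO libraries (log2 fold change -5.62, edgeR adjusted p 0.0692 and 0.021 with the replicate block). Mmp20, the protease of secretory enamel, had 26.9, 93.3 and 207 CPM against 0.253, 2.01 and 11.4 CPM (log2 fold change -4.59, edgeR adjusted p 0.0884 and 0.00578 with the block). Ambn (ameloblastin, log2 fold change -2.33) and Odam (log2 fold change -2.0) had overlapping groups, and their edgeR adjusted p went from 0.141 and 0.122 to 0.0346 and 0.0246 with the block. Fst, the activin antagonist follistatin, whose excess is known to block ameloblast differentiation, was higher at 31.1, 47.1 and 28.2 CPM against 11.9, 12.3 and 6.25 CPM (log2 fold change 1.81, edgeR adjusted p 0.0582 and 0.00695 with the block). Amtn and Klk4, genes of later enamel stages, stayed under 2 CPM in every library and were not tested.

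Amelx, Enam, Mmp20 and Ambn, like Sp6, Dlx3 and Satb1, had their highest CPM in number 3 of each genotype. The spread was unlike in size, since Amelx differed 8.63-fold between control libraries 1 and 3, and Sp6, Dlx3 and Satb1 by 1.26-fold, 1.18-fold and 1.43-fold.

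RefSeq promoter windows of GRCm38.p6, from 250 bases before to 50 bases after a start site, were found for 7 of the 9 factors (not Dlx3 and Sp6) and for 7 of the 8 enamel genes (not Fst). They were searched on both strands for the homeodomain cores TAATTA and TAATTG and for the GC box GGGCGG that Sp proteins bind. Of 32851 windows of all genes, 5.29% held TAATTA, 8.0% TAATTG and 35.7% GGGCGG. A homeodomain core was found in the windows of Msx2, Mmp20, Ambn and Odam, and a GC box in those of Msx2, Dlx2, Tbx1, Sox2 and Satb1. These hits are named by gene and the shares are by window. Tbx1 and Satb1 have several windows, not all with a GC box, so the hits cannot be set against the shares directly. The windows of Msx2 and Satb1, the members at either end of the fold changes, and of Mmp20 and Odam, the enamel genes with a core that lay farthest apart in fold change, are shown with these letters in capitals.
Msx2, chr13:53472731-53473030, minus strand: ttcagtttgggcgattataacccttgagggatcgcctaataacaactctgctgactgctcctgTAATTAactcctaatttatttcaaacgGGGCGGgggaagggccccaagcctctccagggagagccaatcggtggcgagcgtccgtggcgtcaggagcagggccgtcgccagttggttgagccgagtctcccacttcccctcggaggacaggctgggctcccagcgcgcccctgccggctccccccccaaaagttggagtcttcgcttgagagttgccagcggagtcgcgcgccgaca
Satb1, chr17:51832598-51832897, minus strand: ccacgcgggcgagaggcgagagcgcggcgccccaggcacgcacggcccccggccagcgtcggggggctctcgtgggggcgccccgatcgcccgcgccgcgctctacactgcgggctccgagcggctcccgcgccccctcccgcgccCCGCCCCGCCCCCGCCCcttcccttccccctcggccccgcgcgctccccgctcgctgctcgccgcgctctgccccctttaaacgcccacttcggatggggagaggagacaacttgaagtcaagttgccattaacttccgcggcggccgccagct
Mmp20, chr9:7627981-7628280, plus strand: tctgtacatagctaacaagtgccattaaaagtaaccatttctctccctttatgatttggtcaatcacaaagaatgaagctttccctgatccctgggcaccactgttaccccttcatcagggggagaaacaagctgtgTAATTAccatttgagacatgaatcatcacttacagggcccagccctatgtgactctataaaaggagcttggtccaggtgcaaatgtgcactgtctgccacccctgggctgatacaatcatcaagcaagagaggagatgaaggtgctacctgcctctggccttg
Odam, chr5:87884760-87885059, plus strand: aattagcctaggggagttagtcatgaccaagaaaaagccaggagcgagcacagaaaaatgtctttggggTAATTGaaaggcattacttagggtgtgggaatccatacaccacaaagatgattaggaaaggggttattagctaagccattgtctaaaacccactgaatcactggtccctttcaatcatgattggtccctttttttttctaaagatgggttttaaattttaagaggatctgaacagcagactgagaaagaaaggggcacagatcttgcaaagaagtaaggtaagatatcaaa
Satb1 has 5 windows in RefSeq, and only the one shown holds a GC box, in 3 copies side by side that read CCGCCC on the strand printed. A match of letters describes the window and does not show that a factor binds there.

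Paralogues of the 9 factors gave a list of 26 genes, 16 of which were tested. Their median log2 fold change was 0.21, and it was 0.43, 0.12 and 0.39 without control library 2, cKO library 2 and cKO library 3. Of the 16, 0 had an edgeR quasi-likelihood adjusted p of at most 0.05, while 6 had an unadjusted p at or under it (24.5% of all genes). DESeq2 put 4 of the 16 at or under 0.05 after adjustment (11.7% of all genes). With the replicate block 3 were higher and 1 lower with a log2 fold change of 1 or more in size, against 4.16% and 1.92% of all genes. Msx1, the paralogue of Msx2 that is best known from dental mesenchyme, had 22.1, 60.8 and 23.4 CPM in the controls and 121, 100 and 77.5 CPM in the cKO libraries (log2 fold change 1.49, edgeR adjusted p 0.0988 and 0.0387 with the block). Tbx15 was also higher with the block (log2 fold change 2.43) but did not reach 5 CPM in any library, and Sp9 was higher (1.85) with overlapping groups.

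Sox21, a relative of Sox2 known from the enamel epithelium, was the paralogue that was lower. Sox21 had 32.2, 35.8 and 109 CPM in the controls and 10.1, 13.4 and 25.0 CPM in the cKO libraries (log2 fold change -1.87, edgeR adjusted p 0.114 and 0.00671 with the block). Bcl11a, the paralogue of Bcl11b, had a log2 fold change of -0.51, with groups that did not overlap and an edgeR adjusted p of 0.131 and 0.039 with the block. Dlx5 had a log2 fold change of 0.00 with an edgeR adjusted p of 0.994. Dlx1, which overlapped between the groups, had one of 0.62 with an edgeR adjusted p of 0.163, and of 0.60 with 0.0388 under the block.

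Of 37 other transcription factors of dental or surface epithelium, all were tested. Their median log2 fold change was -0.19 (-0.39 without cKO library 3), with 14 positive and 23 negative. Without the block 1 rose and 1 fell, against 0.142% and 0.29% of all genes. Grhl3, a grainyhead factor of barrier-forming epithelium, fell from 10.2 to 16.1 CPM in the controls to 0.944 to 1.33 CPM in the cKO libraries (log2 fold change -3.55, edgeR quasi-likelihood adjusted p 0.0247). Lef1, the nuclear partner of beta-catenin in Wnt signalling, rose from 16.4 to 20.1 CPM to 35.9 to 51.7 CPM (log2 fold change 1.30, edgeR adjusted p 0.0498). With 1 library left out in turn, the log2 fold change of Grhl3 stayed between -3.7 and -3.34, but its edgeR adjusted p ran from 0.0451 to 0.144 and passed only without control library 2 or cKO library 3. That of Lef1 ran from 0.0476, without cKO library 3, to 0.21. With the block 3 were higher (Foxq1, Lef1 and Tbx3) and 4 lower (Grhl3, Elf5, Ovol1 and Ehf), against 4.16% and 1.92% of all genes. Elf5 was near the floor of 3 counts, with 17 to 24 counts in the controls and 3 to 4 in the cKO libraries. Trp63, the p63 factor of basal epithelium, had 496 CPM in the controls and 383 CPM in the cKO libraries on average (log2 fold change -0.37, edgeR adjusted p 0.309).

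Genes of the epithelial stem cell niche, with which Sox2, Isl1, Tbx1 and Bcl11b are known to act, were all tested (16 genes). Their median log2 fold change was 0.61, with 15 positive and 1 negative, and it moved to 0.76 and 0.38 without control libraries 2 and 3. None had an edgeR quasi-likelihood adjusted p of at most 0.05, 7 had an unadjusted p at or under it, all higher (13% of all genes), and DESeq2 put 5 higher at an adjusted p of at most 0.05 (6.82% of all genes). With the block 2 were higher, Inhba and Fst, against 4.16% of all genes. Inhba, which encodes the activin A subunit, had 4.33, 3.39 and 3.28 CPM in the controls and 78.3, 16.2 and 16.6 CPM in the cKO libraries (log2 fold change 3.33, edgeR adjusted p 0.0674 and 0.0186 with the block). Fgf9, Spry2, Igfbp5 and Lgr5, the last a stem cell marker, also had higher CPM in every cKO library, as 14.5% of all genes had, with log2 fold changes of 1.4, 0.86, 0.74 and 1.23 and edgeR adjusted p between 0.0888 and 0.135. Lgr5 was low throughout, at 0.884 to 1.32 CPM in the controls and 2.08 to 3.92 CPM in the cKO libraries. Shh, the epithelial ligand, had 908, 645 and 913 CPM in the controls and 673, 550 and 1750 CPM in the cKO libraries, so that its highest value was in cKO library 3. The remaining niche genes were Bmi1, Bmp4, Fgf3, Fgf10, Fgfr2, Gli1, Lrig1, Ptch1 and Spry4, whose log2 fold changes ran from -0.01 (Bmi1) to 0.91 (Fgf10) with overlapping groups.

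**Figure D4:**
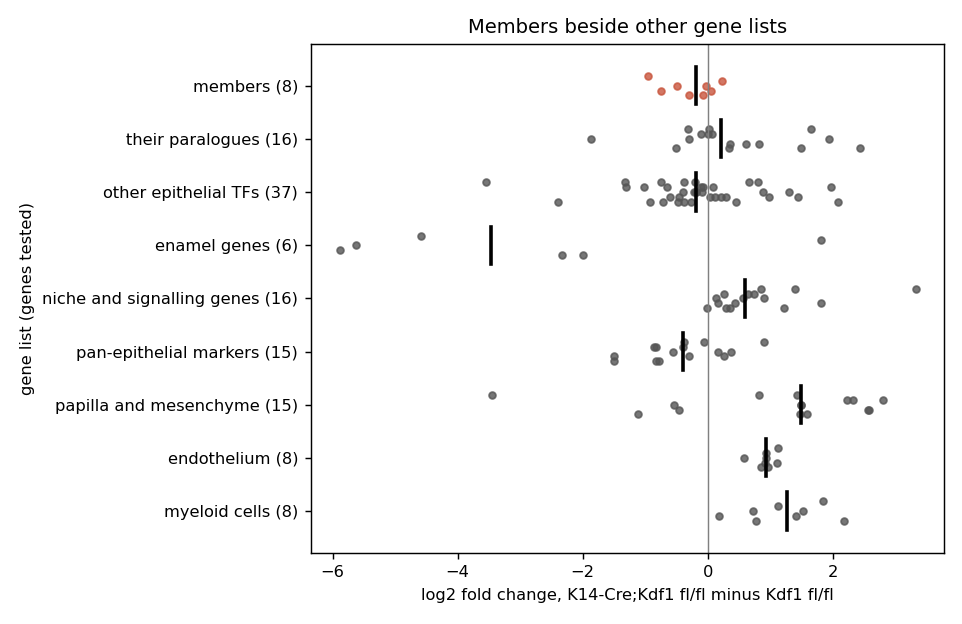
Log2 fold change of each tested gene (points) in the 9 factors and in 8 other gene lists, with the median of each list as a black bar and the number of genes tested in brackets. The 8 tested factors lie between -0.95 and 0.23, inside the range of the other epithelial factors, and the enamel genes reach -5.89.

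The genes most alike in pattern were sought among 11593 genes of at least 5 CPM, by the mean absolute difference of log2 CPM deviations over the 6 libraries. For Sp6 these were Pxylp1, Ap1s3 and Ripply3, at 0.0348, 0.0644 and 0.0654, and for Satb1 they were Phyhip, Sh3rf2 and Cpeb2, at 0.0801, 0.0903 and 0.0905. Dlx3 was nearest to Yae1d1, Prps2 and Vldlr, and Bcl11b to Ddx31, Rap2b and Noc4l. For Msx2 the nearest were Ube2e2, Baiap2l2 and Zdhhc13, for Dlx2 Slc27a3, Nek3 and Duxbl1, and for Tbx1 Fam71e1, Cenpo and Ciz1. Sox2 had no close match, with its nearest gene, Troap, at 0.3. Among the members, Sp6 and Satb1 (0.136) and Sp6 and Dlx3 (0.145) were the closest pairs, and Sox2 and Satb1 (1.09) the farthest apart.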

How the data were processed

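RNA from the IEE of mouse mandibular first molars was sequenced by the authors in 3 control and 3 cKO libraries. The submitters' processing notes name BWA 0.7.12, Picard 2.6.0 and StringTie, with no role given, and the genome build, the counting program and its use of strand are not given in the sources used here. The authors deposited 1 table with estimated counts per gene, without normalisation, of which 10.9% to 11.5% per library were not whole at a tolerance of 0. They also deposited TPM, used here for levels between genes, and FPKM values (scaled by the authors for length and library size), which were not tested.

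Estimated counts were rounded and tested with edgeR 4.0.16 (R 4.3.3), with filterByExpr, TMM scaling (factors 0.95 to 1.03) and the robust quasi-likelihood test, 2-sided, over 14131 genes, with Benjamini-Hochberg adjustment. A gene passed with a log2 fold change of 1 or more in size and an adjusted p up to 0.05, the criterion of the study. CPM are TMM-scaled. The biological coefficient of variation was 25.4%. DESeq2 1.42.0, limma 3.58.1, other scalings, filters and each library left out in turn were alternatives. Members and lists were chosen with earlier results of these data known. All 9 factors are named, and of other lists up to 5 genes that passed with or without the block, all tested enamel and niche genes, family and epithelial factors of at least 5 CPM, and the 3 genes nearest in pattern. Some genes of these lists are not reported here. Counting floors were 3 counts per library and cover counting error only, since PCR reads are not independent molecules.

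The labels give both genotypes replicate numbers 1 to 3 as biological replicates. Deviations from the group means correlated at 0.135, 0.324 and 0.499 for libraries of the same number, all above 0.1, so the block is given beside the calls of the report that it changed. The pairing is read from the data, not from labels of shared litters, and cKO library 1 correlated at 0.144 with control library 2. Every adjusted p with the block rests on this pairing, chosen from the same data, and may be too small.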

Additional observations from a re-analysis of the deposited data

How the results depend on the processing

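Scaling to epithelial markers moved the median of all genes by 0.41 to 1.15 on the log2 scale and is counted apart here. With library size alone that median moved by 0.05. Among all 19 alternatives, the epithelial scalings turned the sign of Satb1, Sp6 and Dlx3 in 2 each and of Bcl11b in 3. Over the other 16 alternatives for each of the 8 tested factors (128 values), 106 kept direction and side of the threshold. In 6 Satb1 or Sp6 passed it, and in 16 Msx2, Dlx2, Tbx1 or Sox2 turned sign. Genes passing the criterion numbered 61, and 1038 in DESeq2, 6 in limma-voom, 7 with DESeq2 size factors, 9 with library size alone, 103 without a filter, 6 with at least 10 counts everywhere, 16 on log2(TPM + 1), 8964 with Krt5 and Krt14 scaling, and 1 to 465 with 1 library left out (465 without cKO library 3, 16 without control library 2). Factors passing numbered 0 and, with Krt5 and Krt14 scaling, 3 (Msx2, Dlx2 and Tbx1, all higher), and 0 to 1 with 1 library left out (Satb1 without cKO library 3).

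With the replicate block 860 genes passed, and 9255 with the block and Krt5 and Krt14 scaling, chosen after seeing the data, where 4 factors passed. The block turned Sox2 to 0.16 and brought Satb1 (-0.97) and Sp6 (-0.76) to an adjusted p of at most 0.05, and it changed no other factor's call. With Krt5 and Krt14 scaling, and with the block added, the log2 fold changes were 0.18 and 0.19 for Satb1, 0.38 and 0.40 for Sp6, 0.63 and 0.64 for Dlx3, 0.84 and 0.87 for Bcl11b, 1.09 and 1.33 for Sox2 and 1.12 and 1.15 for Tbx1. Scaled to 15 pan-epithelial markers, also chosen after seeing the data, Bcl11b was at 0.11, Tbx1 at 0.39 and Sox2 at 0.44. Tbx1 turned to 0.01 with upper quartile scaling, 0.03 with library size alone and 0.09 on both TPM scales. Sox2 turned to 0.22 in limma-voom, 0.09 on log2(TPM + 1) and 0.24 on log2(TPM + 0.1). With 1 library left out, log2 fold changes ran from -0.09 to 0.47 for Msx2, -0.17 to 0.23 for Dlx2, -0.14 to 0.12 for Tbx1, -0.38 to 0.87 for Sox2 and -0.33 to -0.17 for Bcl11b. The cause of these turns was not tested. Sox2 and Isl1 had the lowest counts of the 9, where depth limits what can be seen.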
